A study of Mus musculus with 6 samples.

Results

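The 10 genes described here encode transcription regulators that set or hold the identity of germinal centre B cells, which arise after immunization in lymphoid follicles, where antibody genes are mutated and cells with better receptors are kept. They were chosen by symbol, and all 10 were found among the 55421 genes listed, or 13562 genes tested. RNA was sequenced from AID-GFP+ cells, sorted by a green fluorescent reporter, from spleens of C57BL/6 mice. The mice were immunized with NP(18)OVA in alum, the protein ovalbumin coupled to NP, a small hapten, and spleens were taken on day 9. The groups were 3 SFR KO libraries, from mice with a deletion of 7 SLAM family receptor genes (Cd244, Ly9, Slamf7, Cd48, Slamf1, Cd84 and Slamf6), and 3 wildtype libraries. Both groups carried the reporter and were immunized the same way. The deletion is not described as limited to 1 cell type, so other cells of these mice could lack the receptors too. The sources used here do not give ages, sexes or the number of mice behind a library, and the p-values therefore cover only the spread among these libraries, which may be technical.

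Germinal centre identity is held by a network of such factors. PAX5 and EBF1 are set early in the B lineage and keep B cell genes on. SPIB, IRF8 and the coactivator encoded by Pou2af1 act on B cell and germinal centre genes, and BCL6, MEF2B, MEF2C, FOXO1 and BACH2 are required in mice for germinal centres to form or to keep their programme. BCL6 and BACH2 are repressors that hold back plasma cell differentiation.

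Gene totals, recovered from the normalized values, ran from 28269310 to 33053024 reads a library. Reads of the deleted genes matched the labelled genotype. The 7 deleted genes had between 0 and 30 reads each in the 3 SFR KO libraries together and between 154 and 16589 in the 3 wildtype libraries together. All 9 germinal centre and B cell markers examined were present. The main test was limma on log2(normalized reads + 1), with Benjamini-Hochberg adjusted p-values over all tested genes and a threshold of 0.05. It called 63 of 13562 genes (0.465%), 21 higher and 42 lower in SFR KO libraries; with upper quartile scaling 23 were higher and 27 lower. SFR KO 1 stood apart: its counts differed from those of SFR KO 2 and 3 with a chi-square per gene of 16.9 and 24.5, against 6.11 between SFR KO 2 and 3, and between 12.5 and 13.5 for the wildtype pairs. Without SFR KO 1, 480 genes were called (3.54%).

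None of the 10 factors passed the limma threshold. At an unadjusted p under 0.05 there were 3 (Mef2c, Bcl6 and Bach2), where 16.1% of all tested genes had such a p. On recovered reads, edgeR's quasi-likelihood test called 0 of the 10 (0.221% of tested genes) and DESeq2 called 1, Mef2c (4.84%). In the authors' deposited table, where 4.8% of genes with an adjusted p were called, Mef2c was likewise the 1 member under 0.05. For 3 members the SFR KO and wildtype values did not overlap, beside 21.7% of all tested genes. Mef2c and Ebf1 were the 2 with higher SFR KO values (9.78% of tested genes) and Bcl6 the 1 with lower SFR KO values (11.9%). In a bulk sample, fewer cells of a type and less RNA per cell cannot be told apart.

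Mef2c encodes a MADS-box factor that acts downstream of B cell receptor signals. It had 21264, 20675 and 21363 normalized reads in SFR KO 1, 2 and 3, against 17964, 18570 and 17594 in wildtype 1, 2 and 3. Every SFR KO library lay above every wildtype library, and the spread within each group was small, at a coefficient of variation of 1.76% in SFR KO and 2.73% in wildtype libraries. The log2 difference of SFR KO minus wildtype was 0.23 ± 0.05 (SE), a ratio of 1.17 with a 95% interval of 1.09 to 1.26. Its limma adjusted p was 0.0659 over all genes. The value was 0.0351 without SFR KO 1 and between 0.148 and 0.227 without any 1 of the other 5 libraries, and edgeR gave 0.0707 and DESeq2 0.000418. The authors' deposited table gave a log2 fold change of 0.23 with an adjusted p of 0.00129. Mef2c had the lowest GC content of the 10, at 40.8% of its longest transcript. With each library's trend in GC content removed, the limma log2 difference was 0.14 ± 0.04 (adjusted p = 0.210).

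Bcl6, the zinc finger repressor that defines the germinal centre state, had 13496, 14053 and 14235 normalized reads in SFR KO 1, 2 and 3, against 15052, 16046 and 14732 in wildtype 1, 2 and 3. All SFR KO values lay below all wildtype values, by a small step. The log2 difference was -0.13 ± 0.05 (SE), a ratio of 0.912 with a 95% interval of 0.843 to 0.987, and the limma adjusted p was 0.245.

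Bach2, the basic leucine zipper repressor that works with BCL6 against plasma cell differentiation, had 18324, 20923 and 22834 normalized reads in SFR KO 1, 2 and 3. In wildtype 1, 2 and 3 it had 16292, 19916 and 17118. The groups overlapped, since wildtype 2 lay above SFR KO 1. The log2 difference was 0.22 ± 0.09 with a limma adjusted p of 0.292, and the estimate was 0.30 ± 0.08 without SFR KO 1 (adjusted p = 0.0720) and 0.14 ± 0.09 without SFR KO 3 (0.548).

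**Figure D1:**
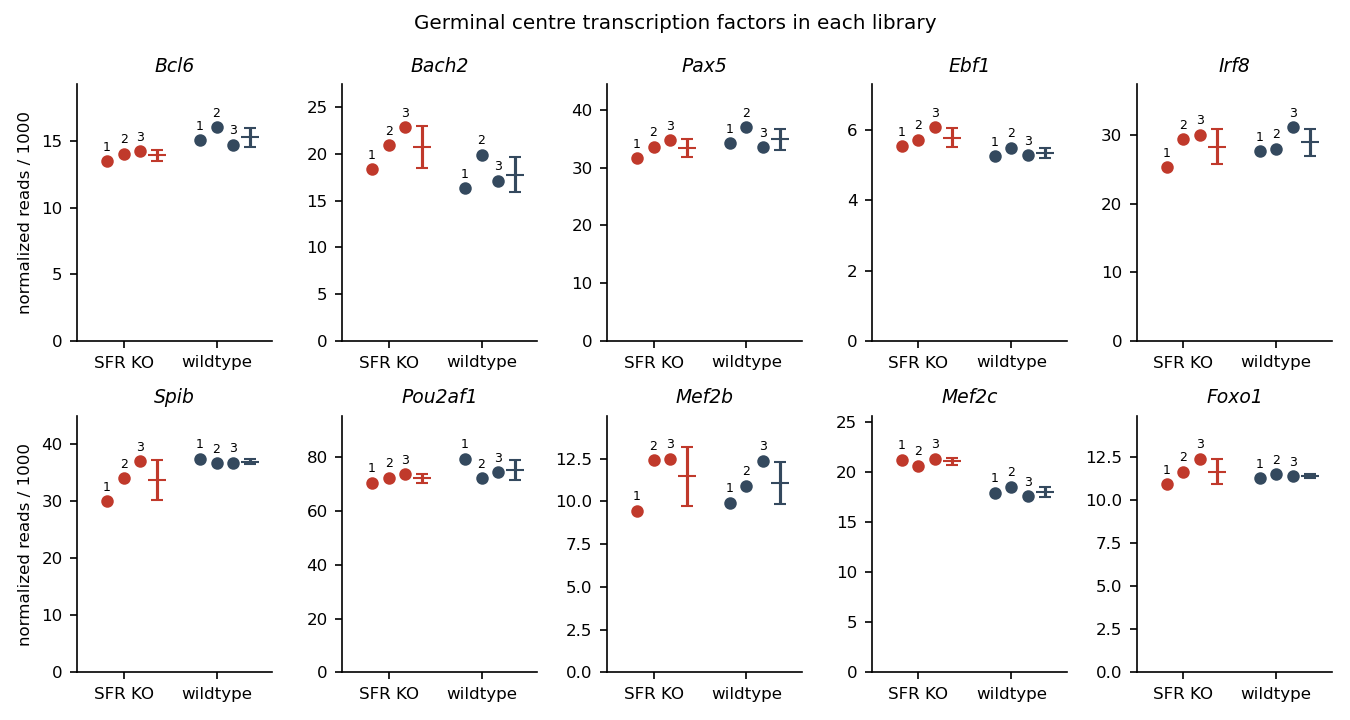
Normalized reads (axis from 0, in units of 1000) of each factor in each library, with SFR KO libraries left of wildtype libraries and numbers giving the library; bars show mean ± SD (n = 3). Mef2c and Ebf1 in SFR KO libraries lay above every wildtype library and Bcl6 below, while the groups of the other 7 overlapped.

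These 3 factors are the ones with the smallest p-values, and promoter sequence is shown for them because 1 window of each held the same motif, a match to the BCL6 motif TTCNTNGAA on either strand. Motifs and windows were chosen after the sequences and the fitted values had been seen, so the shared match is a description of chosen windows. The windows are the 250 bases before a RefSeq start (GRCm38.p6), on the gene's strand, and overlapped no annotated exon. The Mef2c window lies just before the annotated gene (chr13:83504034-83667080, plus strand). Those of Bcl6 (chr16:23965052-23988852, minus strand) and Bach2 (chr4:32238804-32586108, plus strand) lie before starts inside the gene. The window before the outermost Bcl6 start held neither motif, and the bases just after the Bcl6 start used here were found in no GENCODE transcript. Letters in capitals mark matches to that motif or to the composite ETS and IRF motif GGAANNGAA on either strand, and no matches overlapped in these windows.
Bcl6, chr16:23981284-23981533, minus strand: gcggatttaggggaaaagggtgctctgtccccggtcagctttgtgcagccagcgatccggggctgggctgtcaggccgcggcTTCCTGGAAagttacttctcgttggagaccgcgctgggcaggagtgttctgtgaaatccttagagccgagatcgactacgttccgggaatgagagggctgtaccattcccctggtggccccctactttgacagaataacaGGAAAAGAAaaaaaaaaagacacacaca
Bach2, chr4:32417185-32417434, plus strand: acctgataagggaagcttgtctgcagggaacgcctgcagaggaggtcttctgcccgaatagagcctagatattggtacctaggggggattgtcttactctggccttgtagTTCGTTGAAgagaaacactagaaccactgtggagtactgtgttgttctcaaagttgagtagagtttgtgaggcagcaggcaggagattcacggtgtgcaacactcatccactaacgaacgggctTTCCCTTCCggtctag
Mef2c, chr13:83503784-83504033, plus strand: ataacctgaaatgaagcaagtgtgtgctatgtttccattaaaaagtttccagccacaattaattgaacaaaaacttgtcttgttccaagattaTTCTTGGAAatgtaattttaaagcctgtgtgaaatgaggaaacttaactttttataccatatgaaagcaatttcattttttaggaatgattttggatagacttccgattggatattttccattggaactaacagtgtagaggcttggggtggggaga
The BCL6 motif began 168, 140 and 157 bases before the start in Bcl6, Bach2 and Mef2c. The composite motif began 28 bases before the start in Bcl6 and 16 in Bach2, on the reverse strand there. Over all 32851 promoter windows of that length, 3.15% held the BCL6 motif and 6.99% the composite motif.

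Among the 15 windows of the 10 factors, 3 held the BCL6 motif and 2 the composite motif. The octamer ATTTGCAT, which OCT factors bind together with the Pou2af1 product, was in 1 window, that of Mef2b, and in 1.6% of all windows. The EBF1 core CCCNNGGG was in the windows of Foxo1 and Spib (11.8% of all windows), with 2 overlapping matches in Spib. The letters searched for BACH2, TGANTCA, are a loose form that allows any base at the centre. They were in the window of another Mef2c start, where they read TGAATCA, and in 6.75% of all windows. Stricter letters for BACH2 were not searched. The MEF2 letters CTATTTATA (0.387%) and the FOXO letters TGTTTAC (3.17%) were in 0 of the 15. The MEF2 and composite letters are shortened forms, taken up after longer ones had been searched, which changed the share of all windows that held them. These matches describe letters in short windows and show no binding.

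The lineage factors PAX5 and EBF1 had small fitted differences. Pax5, which activates B cell genes and silences those of other lineages, had 31663, 33674 and 34731 normalized reads in SFR KO 1, 2 and 3, against 34204, 37011 and 33575 in wildtype 1, 2 and 3. The groups overlapped, and the log2 difference was -0.07 ± 0.06 (limma adjusted p = 0.634). Ebf1, the factor that specifies the B lineage with PAX5, had 5543, 5716 and 6076 normalized reads in SFR KO 1, 2 and 3, against 5252, 5495 and 5286 in wildtype 1, 2 and 3. Its groups did not overlap, but the lowest SFR KO value and the highest wildtype value lay close together. The log2 difference was 0.11 ± 0.05 (adjusted p = 0.329), and 0.07 ± 0.05 with the GC trend removed (adjusted p = 0.614; GC content 43.1%).

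Pou2af1, Spib and Irf8 work with or beside OCT, ETS and IRF partners on B cell promoters and enhancers. Pou2af1, the coactivator known as OBF-1, had 70485, 72335 and 73678 normalized reads in SFR KO 1, 2 and 3, against 79433, 72199 and 74359 in wildtype 1, 2 and 3. SFR KO 2 and 3 lay within the wildtype range and SFR KO 1 just below it (log2 difference -0.06 ± 0.06, limma adjusted p = 0.659). Spib, an ETS factor, had 30075, 34081 and 37038 normalized reads in SFR KO 1, 2 and 3, against 37497, 36723 and 36791 in wildtype 1, 2 and 3. The wildtype values lay close together (coefficient of variation 1.16%), while the SFR KO values were spread (10.4%) and SFR KO 3 lay among the wildtype values. The log2 difference of Spib was -0.14 ± 0.07 (adjusted p = 0.397), and -0.06 ± 0.05 without SFR KO 1 (0.576). Irf8, an interferon regulatory factor that pairs with ETS partners, had 25378, 29448 and 30069 normalized reads in SFR KO 1, 2 and 3, against 27642, 28049 and 31168 in wildtype 1, 2 and 3. Its log2 difference was -0.03 ± 0.08 (adjusted p = 0.872), with a 95% interval of -0.21 to 0.14.

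Mef2b, the paralogue of Mef2c that activates Bcl6 in human germinal centre cells, had 9452, 12419 and 12492 normalized reads in SFR KO 1, 2 and 3, against 9922, 10904 and 12374 in wildtype 1, 2 and 3. The groups overlapped over most of their range, and it had the largest spread of the 10 (15.1% in SFR KO and 11.2% in wildtype libraries). The log2 difference was 0.04 ± 0.11 (limma adjusted p = 0.896), with a 95% interval of -0.21 to 0.30. Mef2b shares 62 exon bases on the same strand with Borcs8, so its counts carry some uncertainty. Foxo1, the forkhead factor of the dark zone programme, had 10904, 11633 and 12384 normalized reads in SFR KO 1, 2 and 3, against 11265, 11501 and 11365 in wildtype 1, 2 and 3. All wildtype values lay inside the SFR KO range (log2 difference 0.03 ± 0.05, adjusted p = 0.834, 95% interval -0.09 to 0.15).

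**Figure D2:**
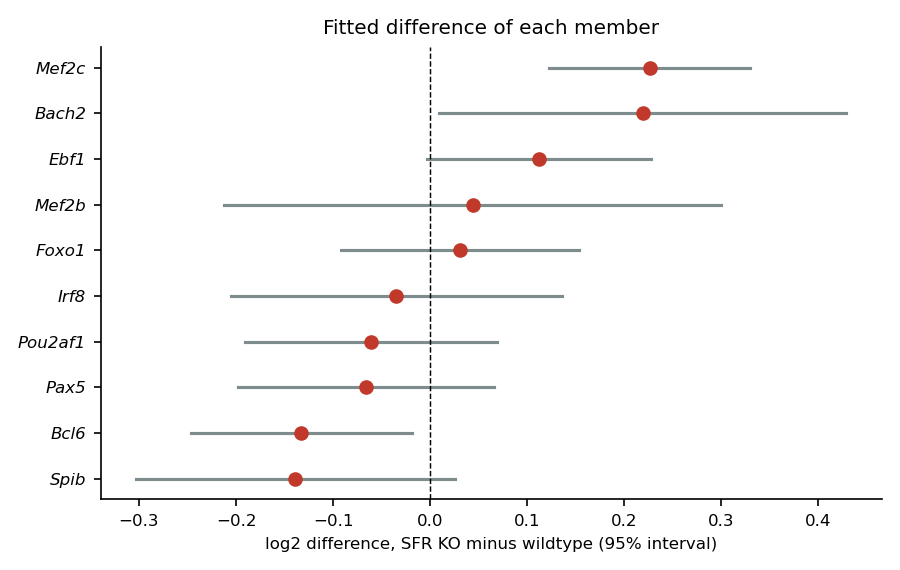
Fitted log2 difference (SFR KO minus wildtype, horizontal axis) of each factor with its 95% interval, ordered by value. Mef2c (0.23) and Bach2 (0.22) lie above 0 and Bcl6 (-0.13) below 0 with intervals that exclude 0 before adjustment; the other 7 intervals cover 0.

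The size of these differences was set beside that of other well expressed genes. The median absolute log2 difference was 0.09, against 0.08 over the 5536 tested genes that averaged 1000 or more normalized reads, and the signed median of the 10 was 0.00, as over all tested genes. With 5 fitted values above 0 and 5 below, no shared direction was seen. The median within-group SD was 0.07 on the log2 scale for the 10, and also 0.07 for the 5536 genes.

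Within the SFR KO group the factors shared an order of libraries. SFR KO 1 held the lowest of the 3 SFR KO values for 9 of the 10 factors, the exception being Mef2c, where SFR KO 2 was lowest. Over the 5536 genes of like level SFR KO 1 was lowest for 47.1%, and over all tested genes for 40.0%. SFR KO 1 was also the lowest of all 6 libraries for 7 of the 10 factors, against 30.9% of the 5536 genes and 22.4% of all tested genes. Whether the share differs for genes matched in level to the factors was not tested. The step below the mean of SFR KO 2 and 3 was largest for Mef2b, at a log2 value of -0.40, followed by Bach2 (-0.25), Spib (-0.24) and Irf8 (-0.23). For Mef2c the same quantity was 0.02. In wildtype libraries no such order appeared: wildtype 1, 2 and 3 were lowest for 5, 2 and 3 of the 10 factors.

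**Figure D3:**
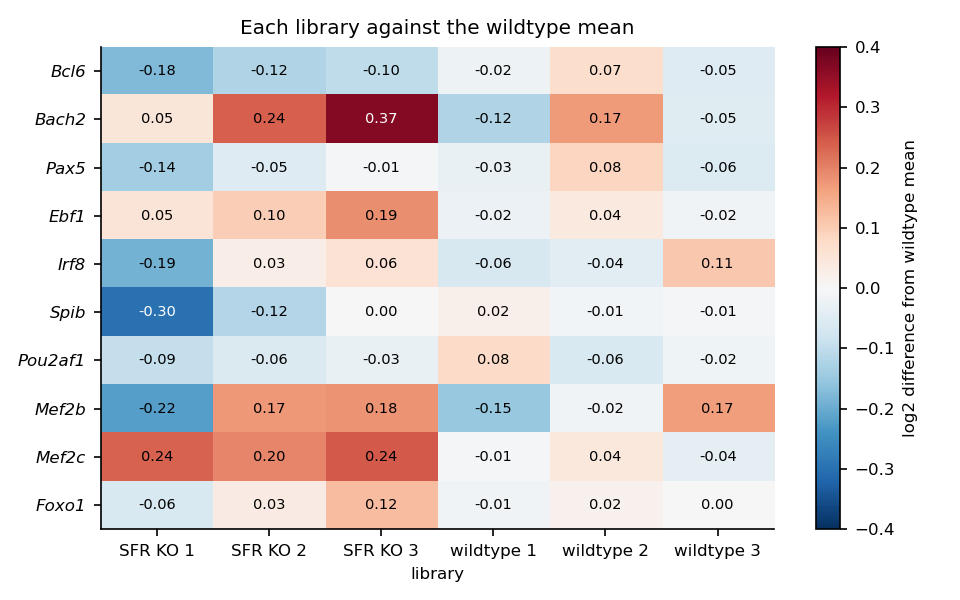
Log2 difference of each library from the wildtype mean of the same factor, with SFR KO libraries in the left columns and wildtype libraries in the right columns; red is above and blue below the wildtype mean. SFR KO 1 has values of -0.30 for Spib and -0.22 for Mef2b where SFR KO 3 has 0.00 and 0.18, while Mef2c stands at 0.20 to 0.24 in all SFR KO libraries.

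Markers of other cell states are given beside this library order. Over all tested genes, 16.1% had an unadjusted p under 0.05 in limma, and limma called 3.54% without SFR KO 1. DESeq2 called 4.84% of genes with an adjusted p. The summed level of 9 markers of resting follicular B cells was 18006, 9899 and 9900 normalized reads in SFR KO 1, 2 and 3, against 18793, 19432 and 15063 in wildtype 1, 2 and 3. Most of each sum was Cr2 and Fcer2a, which had 7905, 4234 and 4854 and 6271, 2546.5 and 2150 normalized reads in SFR KO 1, 2 and 3. All 9 had fitted log2 differences below 0 (median -0.32, between -0.47 without SFR KO 1 and -0.21 without SFR KO 3), with 0 called by limma, edgeR or DESeq2 and 3 at an unadjusted p under 0.05 in limma; without SFR KO 1, limma called 2 lower, Cr2 and Fcer2a. The 9 T cell markers, of interest because T cells also express Bach2 and Foxo1, summed to 4845, 6291 and 7016 normalized reads in SFR KO 1, 2 and 3, against 4723, 4522 and 4360 in wildtype 1, 2 and 3. Most of that sum was the kinase gene Lck, with 3797 to 6155 normalized reads over the 6 libraries, where Cd3e had 46.7 to 120. Which cells the Lck reads came from was not tested. The T cell receptor gene Trac had 175, 174 and 179 normalized reads in SFR KO 1, 2 and 3 and 138, 122 and 74 in wildtype 1, 2 and 3. Of the 9, 8 had fitted values above 0 (median 0.71, but 0.39 without wildtype 3 and 0.98 without wildtype 1), with 0 called by limma and edgeR and 5 at an unadjusted p under 0.05 in limma; Lck was called by DESeq2 and, without SFR KO 1, by limma. The 8 dendritic cell markers, of interest because dendritic cells express Irf8 and Spib, summed to between 11990.2 and 13466 normalized reads in SFR KO and between 11449 and 12278 in wildtype libraries. Most of that was Tcf4, which B cells also use, and most of the rest was Flt3, with 1396 to 2139 normalized reads over the 6 libraries. These 2 genes had fitted log2 differences of opposite sign, 0.16 for Tcf4 and -0.33 for Flt3, so the sum hides both. Siglech had 0.937 to 22.3 normalized reads over the 6 libraries, and Xcr1 and Clec9a were below the test's minimum mean. Of the 5 tested, 2 had fitted values above 0, 0 were called by limma, edgeR or DESeq2 and 2 had an unadjusted p under 0.05 in limma; without SFR KO 1, limma called Flt3 lower. The 6 plasma cell markers summed to between 32630.4 and 33227 normalized reads in SFR KO and between 29586 and 30242 in wildtype libraries, mostly from the antibody joining chain gene Jchain. Of the 5 tested, 0 were called by limma and edgeR and 1 (Jchain) by DESeq2, with 3 at an unadjusted p under 0.05 in limma. Those 3 shared no direction: Jchain (0.18) and Prdm1 (0.42) were higher in SFR KO libraries and Sdc1 (-0.59, with 27.4 to 47.7 normalized reads a library) was lower. Fitted values were above 0 for 3 of the 5 and below 0 for 2. The 7 myeloid markers summed to 2756, 1063 and 1324 normalized reads in SFR KO 1, 2 and 3, against 5379, 1623 and 1286 in wildtype 1, 2 and 3. The 6 red cell markers summed to 4225, 1560 and 2971 in SFR KO 1, 2 and 3, against 7886, 1624 and 1435 in wildtype 1, 2 and 3, so that both sums were highest in SFR KO 1 and wildtype 1 of their groups. Limma, edgeR and DESeq2 called 0 of either list, and 0 had an unadjusted p under 0.05. The 9 germinal centre and B cell markers summed to 205335, 225271 and 226713 normalized reads in SFR KO 1, 2 and 3, against 217083, 232674 and 220004 in wildtype 1, 2 and 3, lowest of all 6 in SFR KO 1. Of these, the proliferation gene Mki67 had 42712, 64389 and 65493 normalized reads in SFR KO 1, 2 and 3, against 62044, 71884 and 65908 in wildtype 1, 2 and 3. The low sum of SFR KO 1 came from that gene: summed without Mki67, these markers were not lowest in SFR KO 1. Marker genes named singly were picked after their values were seen. The part of these cells in the values of the 10 factors was not tested.

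Levels can be set against each other only per length of transcript. On the scale of normalized reads per kb of annotated exon, ordered by the mean of all 6 libraries, Pou2af1 was highest, with 28312 ± 629 in SFR KO and 29553 ± 1457 in wildtype libraries (mean ± SD, n = 3). Spib followed at 11761 ± 1219 and 12902 ± 149, and Mef2b at 8158 ± 1236 and 7883 ± 879. Irf8 and Pax5 came next, with 4011 ± 361 and 3768 ± 176 in SFR KO and 4104 ± 273 and 3946 ± 207 in wildtype libraries, and their ranges over the 6 libraries overlapped. Bcl6 stood at 2079 ± 57.4 in SFR KO and 2280 ± 102 in wildtype libraries, overlapping in range with Bach2 at 2082 ± 228 and 1788 ± 191. Foxo1 (1343 ± 85.4 and 1313 ± 13.7) and Mef2c (1343 ± 23.7 and 1148 ± 31.3) overlapped as well, and Ebf1 was lowest at 592 ± 27.9 and 548 ± 13.5. The ranges of the other neighbours in this order did not overlap. Ebf1 still stood above 78.5% of tested genes and the other 9 above at least 90.1%. The order rests on the length used: with the longest transcript in place of all annotated exons, Mef2c moved above Bach2 and Foxo1, while places 1 to 6 were the same.

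**Figure D4:**
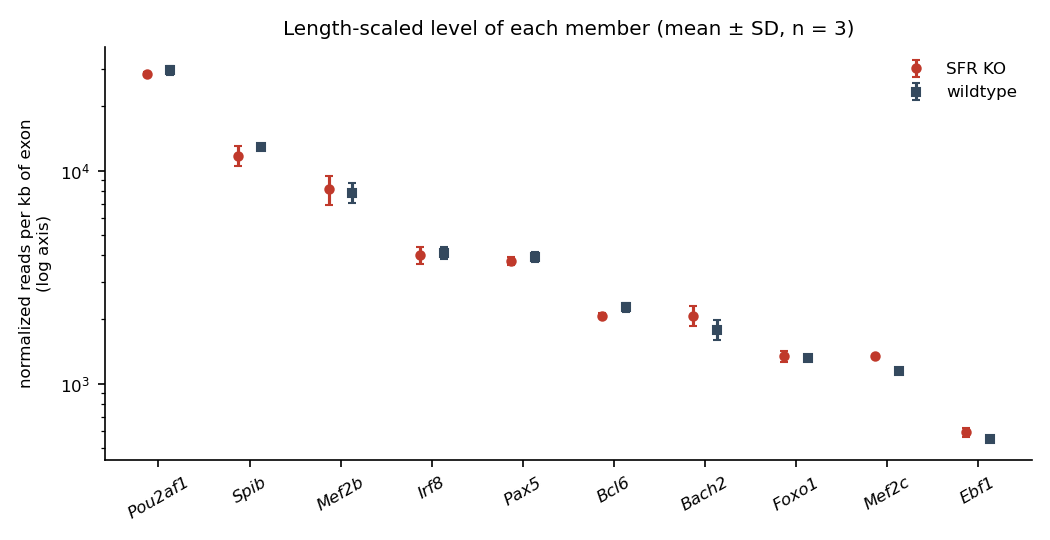
Length-scaled level of each factor (normalized reads per kb of annotated exon, log axis) as mean ± SD of 3 SFR KO (red circles) and 3 wildtype libraries (dark squares). Pou2af1 at 28312 and 29553 is the highest and Ebf1 at 592 and 548 the lowest.

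Partners and paralogues of the factors were examined as a list of 19 genes. Limma, edgeR and DESeq2 each called 0 of the 17 tested. In limma 3 of the 17 passed an unadjusted p of 0.05 (16.1% of all tested genes). The median log2 difference of the 17 was -0.05, and leaving out SFR KO 1 gave 0.05, and leaving out SFR KO 3 gave -0.10. The most abundant were Ikzf1 and Ikzf3, zinc finger factors of lymphocytes, Ets1, and the OCT2 gene Pou2f2, with log2 differences of 0.08, 0.07, 0.08 and -0.07 (limma adjusted p between 0.542 and 0.756). Some relatives of the factors were picked after their values were seen. The remaining MEF2 genes Mef2a and Mef2d stood at 0.11 ± 0.05 and -0.13 ± 0.07 (adjusted p = 0.351 and 0.434). Spi1, the PU.1 gene and paralogue of Spib, had 4425, 4072 and 3785 normalized reads in SFR KO 1, 2 and 3, against 4550, 4764 and 4743 in wildtype 1, 2 and 3. Its groups did not overlap, at a log2 difference of -0.20 ± 0.06 (adjusted p = 0.178), and without SFR KO 1 it was the 1 gene of this list that limma called. That fit called 3.54% of all tested genes.

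BCL6 represses through corepressor complexes, and of 11 corepressor genes limma and edgeR called 0, with 4 at an unadjusted p under 0.05 in limma (16.1% of all tested genes). The most abundant were Ctbp1, Ncor1, Tbl1xr1 and Bcor. Ncor1, which encodes a nuclear receptor corepressor that BCL6 binds, had 9156, 10158 and 10225 normalized reads in SFR KO 1, 2 and 3, against 11667, 12049 and 10919 in wildtype 1, 2 and 3. All SFR KO values lay below all wildtype values, and the fitted log2 value was -0.23 ± 0.06, with a limma adjusted p of 0.125. Bcor, Ctbp1 and Tbl1xr1 stood at -0.05, -0.01 and 0.15 (adjusted p between 0.276 and 0.927). The median of the 11 was -0.05, and 7 had fitted values below 0; with 1 library left out the median lay between -0.10 (without wildtype 1) and 0.00 (without SFR KO 1). DESeq2, which called 4.84% of genes with an adjusted p, called 2 of the 11, both lower. They were Ncor1 and the histone deacetylase gene Hdac7, which is named here after its values were seen.

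Genes reported as repressed by BCL6, mostly in human cells, gave 0 limma, edgeR or DESeq2 calls among 13 tested, with 4 at an unadjusted p under 0.05 in limma (16.1% of all tested genes). The median log2 difference was -0.12, with 4 fitted values above 0 and 9 below. With 1 library left out this median lay between -0.18 (without wildtype 2) and -0.06 (without SFR KO 1, wildtype 1 or wildtype 3), and without SFR KO 2 there were 0 genes at an unadjusted p under 0.05. The list is a selection of reported targets. It shares Gpr183 (-0.40) and S1pr1 (-0.28) with the follicular markers above. Prdm1 (0.42, limma adjusted p = 0.308) and Cdkn1a (-0.23) are also on the BACH2 list below, so these medians are not separate measures. Myc, a growth regulator also reported as repressed by BCL6, is not on it and was picked after its values were seen; it had 1076, 1140 and 1282 normalized reads in SFR KO 1, 2 and 3, against 1715, 1653 and 1614 in wildtype 1, 2 and 3, and limma called it lower (log2 difference -0.51 ± 0.07, adjusted p = 0.0322). Of the most abundant on the BCL6 list, the adhesion receptor gene Cd44 was at -0.12 ± 0.05 (limma adjusted p = 0.248), the checkpoint kinase genes Atr and Chek1 at 0.20 and 0.08, and Trp53 at -0.03. Genes reported as repressed by BACH2, many of heme and redox metabolism, gave 0 calls among 7 tested by limma, edgeR or DESeq2, with 2 at an unadjusted p under 0.05 and a median of -0.08, which with 1 library left out lay between -0.15 (without wildtype 2) and 0.02 (without SFR KO 3). The ferritin genes Fth1 and Ftl1 stood at -0.05 and 0.00, and Gclc and Gclm, the subunits of the enzyme that starts glutathione synthesis, at -0.28 and -0.09.

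Among 14 genes reported as activated by PAX5 or EBF1, limma called Cd72 higher, where 0.155% of all tested genes were called higher, and 0 lower, where 0.31% of all tested genes were called lower. Cd72, an inhibitory receptor of B cells, had 4973, 5646 and 6219 normalized reads in SFR KO 1, 2 and 3, against 3862, 3765 and 4262 in wildtype 1, 2 and 3. It rose by a log2 difference of 0.50 ± 0.08 (limma adjusted p = 0.0477), and the call was lost with edgeR (0.0527) and without any 1 library but SFR KO 1 (0.106 to 0.205). DESeq2, which called 4.84% of genes with an adjusted p, called Cd72 higher and Ciita lower. Without SFR KO 1, where limma called 3.54% of all tested genes, it called Cd72 higher and Cr2, Fcer2a and Vpreb3 lower. Of these, Cr2 and Fcer2a are also follicular markers. The most abundant others were Cd79a and Cd79b, the signalling chains of the B cell receptor, the lectin receptor gene Cd22 and Ikzf3, at -0.07, -0.11, -0.07 and 0.07. The median of the 14 was -0.08, and 11 had fitted values below 0; the median was -0.12 without wildtype 1, -0.05 without wildtype 2 and -0.04 with the GC trend removed. Of 12 tested genes reported as activated by FOXO1, 0 passed limma or edgeR and 1 passed DESeq2. In limma 5 of the 12 were under an unadjusted p of 0.05 (16.1% of all tested genes). The median of the 12 was -0.08, which with 1 library left out lay between -0.17 (without wildtype 2) and 0.18 (without wildtype 1). That list also holds resting cell genes such as S1pr1, which belongs to the follicular markers above. Cxcr4, the dark zone chemokine receptor gene and the DESeq2 call, was at 0.34 ± 0.06 (limma adjusted p = 0.0555), and limma called it without SFR KO 1 and with no filter on low values. Ccng2, Bcl2l11 and Sesn1 were at 0.19, -0.05 and 0.16.

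**Figure D5:**
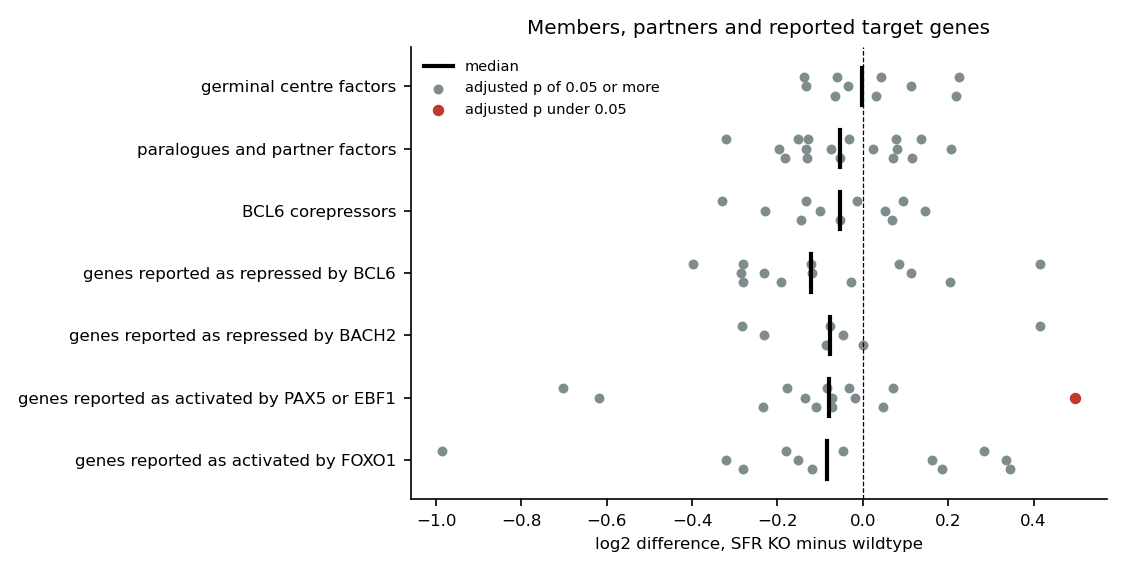
Log2 difference (SFR KO minus wildtype) of the 10 germinal centre factors and of the tested genes of 6 lists of partners and reported targets, with 1 point a gene, a bar at the median, and red for a limma adjusted p under 0.05. The medians lie between -0.12 and 0.00, and the 1 red point is Cd72 (0.50).

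By root mean square difference of centred log2 values over the 6 libraries, the 3 genes closest in pattern to Bcl6 among 8924 genes were Srrm1, Eif2ak3 and Blnk, at 0.016, 0.017 and 0.017. Those closest to Mef2c were Polr2k, Pcgf6 and Ccdc50, each at 0.022.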

How the data were processed

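RNA-seq of sorted AID-GFP+ germinal centre B cells was analysed for 3 SFR KO and 3 wildtype libraries, grouped by the genotype in the labels and numbered in accession order. The build GRCm38 and the tools DESeq2 1.14.1, featureCounts 1.5 and STAR 2.5 are named per the submitters' processing notes; no source used here gives the annotation release, strand setting or filters. The authors deposited per gene a signal, read counts normalized to library size, and its mean. Their deposited comparison of KO with wildtype holds a log2 fold change and its standard error, a score (the test statistic), and raw and adjusted p-value columns. Values were whole multiples of each library's smallest value (100% at a tolerance of 1e-06), which gave back whole reads; depth ran from 28269310 to 33053024 reads, and 24646 genes had a read.

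The main test was limma 3.58.1 (R 4.3.3; eBayes with a trend, two-sided) on log2(normalized count + 1) for genes averaging at least 10 normalized reads; all 10 factors passed. Fold changes on this scale understate the change of low genes. Alternatives were pseudocounts of 0.5 and 5, no filter or a minimum of 50, TMM and upper quartile scaling, edgeR 4.0.16 and DESeq2 1.42.0 on recovered reads, removal of each library's GC trend (natural spline, 4 degrees of freedom; 99.8% of tested genes had a GC content), and each library left out. Gene positions, exon lengths and GC content came from GENCODE M21 (GRCm38), which matched 99.5% of genes, and promoters from RefSeq (GRCm38.p6), which matched all 10 factors. Genes on the opposite strand overlap exons of Bcl6, Bach2, Pax5 and Foxo1 and had at most 58.9 normalized reads on average. Some genes of the lists are not reported here and were left out of list counts, sums and medians. The factors and lists were chosen with earlier results of these data known. The rule for named genes took the 10 factors and, of each list, called genes and up to 4 others of highest mean, with markers by sums and counts; genes named beyond it were picked after their values were seen.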

Additional observations from a re-analysis of the deposited data

How the results depend on the processing

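Of 150 refits of single factors (10 factors, 15 alternatives), 142 kept the direction and the side of the threshold, 2 brought Mef2c past it and 6 reversed a small difference. All 6 reversals came from leaving out 1 library: Irf8 ranged from -0.081 to 0.042 over these fits, Mef2b from -0.032 to 0.18 and Foxo1 from -0.015 to 0.077. The other 7 factors did not change direction. The number of factors called was 1 with DESeq2, and ranged from 0 to 1 with a library left out, Mef2c being called without SFR KO 1. Genes called over the whole table numbered 63, and 129 with no filter, 98 with a minimum mean of 50, 30 with edgeR, 491 with DESeq2 and 18 with the GC trend removed; they ranged from 11 (without SFR KO 2) to 480 (without SFR KO 1). Of the genes in the 6 lists of partners and targets, 1 was called, against 0 with edgeR, 5 with DESeq2, 2 with no filter, and 0 to 6 with a library left out (6 without SFR KO 1). The causes were not tested, although fits with 1 library less have fewer samples. No paired analysis was possible because the labels give the samples no shared replicate numbers. Groups of 3 libraries were not tested for outlying values. Each factor had at least 5204 reads in every library.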
